A study of Macaca fascicularis with 2 samples.

Results

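The nuclear genes for the subunits of respiratory complexes II to V and for cytochrome c were followed in gastrocnemius, a calf muscle, of the cynomolgus macaque. They were chosen by gene name, from the naming patterns of the SDH, UQCR, CYC1, CYCS, COX4 to COX8 and ATP5 genes. The names printed in the files gave 17 genes, of which 3 belong to complex II and 14 to complex V. The same naming rule applied to current RefSeq names gave 48 of the 28175 genes in the files, because SDHA, cytochrome c and all the complex III and complex IV genes stood under placeholder names there and 3 complex V genes, ATP5MK, ATP5MJ and ATP5IF1, under other symbols. Of the 48 genes, 4 belong to complex II, 9 to complex III, 1 is the cytochrome c gene CYCS, 17 belong to complex IV and 17 to complex V.

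RNA of 1 non-lean muscle sample from the high fat diet was compared with RNA of 1 lean muscle sample from the chow diet. The labels give neither age, sex nor genotype, nor how many animals stand behind each sample. Total counts were 12731974 in the non-lean and 15983348 in the lean library, and 20696 and 20692 genes had at least 1 count. Each group is 1 library, so no difference below has a replicate check, no test was made, and the 95% intervals in brackets cover counting error only. Diet, body condition, animal and library preparation cannot be told apart.

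The respiratory chain, or electron transport chain, passes electrons from nutrients to oxygen along the inner mitochondrial membrane and pumps protons across it. Complex II oxidises succinate, complex III hands electrons to cytochrome c, complex IV reduces oxygen, and complex V lets protons back and makes ATP. Complexes III, IV and V each join a few catalytic or core proteins to many small accessory ones, while complex II holds only catalytic subunits and membrane anchors. Oxidative slow muscle fibres hold more of all these complexes than glycolytic fast fibres. Parts of complexes III, IV and V are encoded in mitochondrial DNA. Those mitochondrial genes had no match by name, so they are not analysed here.

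Nearly all of the subunit genes were higher in the non-lean library, and most accessory subunits of complexes III and IV were further up than the catalytic and core subunits. Levels are scaled CPM, that is counts relative to the scaled size of the library, and each log2 ratio sets the non-lean library over the lean one. Of the 48 genes, 46 passed a mean level of 1 CPM over both libraries and are called tested. COX7B2 and COX8C, testis forms in other mammals, did not pass. By current names 44 of the 46 tested genes had a ratio above 0, and 46 with total counts as the scaling. The interval lay above 0 for 42 and below 0 for 1. Among all 13707 tested genes the interval lay above 0 for 25.8% and below 0 for 28.8%. At least 1.5-fold higher were 24 of the 46, against 13.7% of all tested genes. None of the 46 was at least 1.5-fold lower, against 16.9%. At least 2-fold higher were 2 of the 46, UQCR10 and COX6B2, against 4.97%.

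The median log2 ratio was 0.61 over the 46 tested genes and 0.40 over the 17 named in the files, beside -0.01 over all tested genes. For those 17, the interval lay above 0 for 15, and 6 were at least 1.5-fold higher. Of the 46, 32 stood above the upper quartile of all tested genes, a log2 ratio of 0.34, and 17 above their 90th percentile, 0.71. Abundant genes have narrow intervals, and 40 of the 46 had a mean of at least 50 CPM. Of those 40, 39 had an interval above 0 and 22 were at least 1.5-fold higher. Among all 2407 genes at that level these shares were 39.5% and 9.18%. Across the 46 genes the ratio followed the level little, with Pearson's r of -0.06 and Spearman's rho of -0.18, a description over genes of the same 2 libraries.

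**Figure D1:**
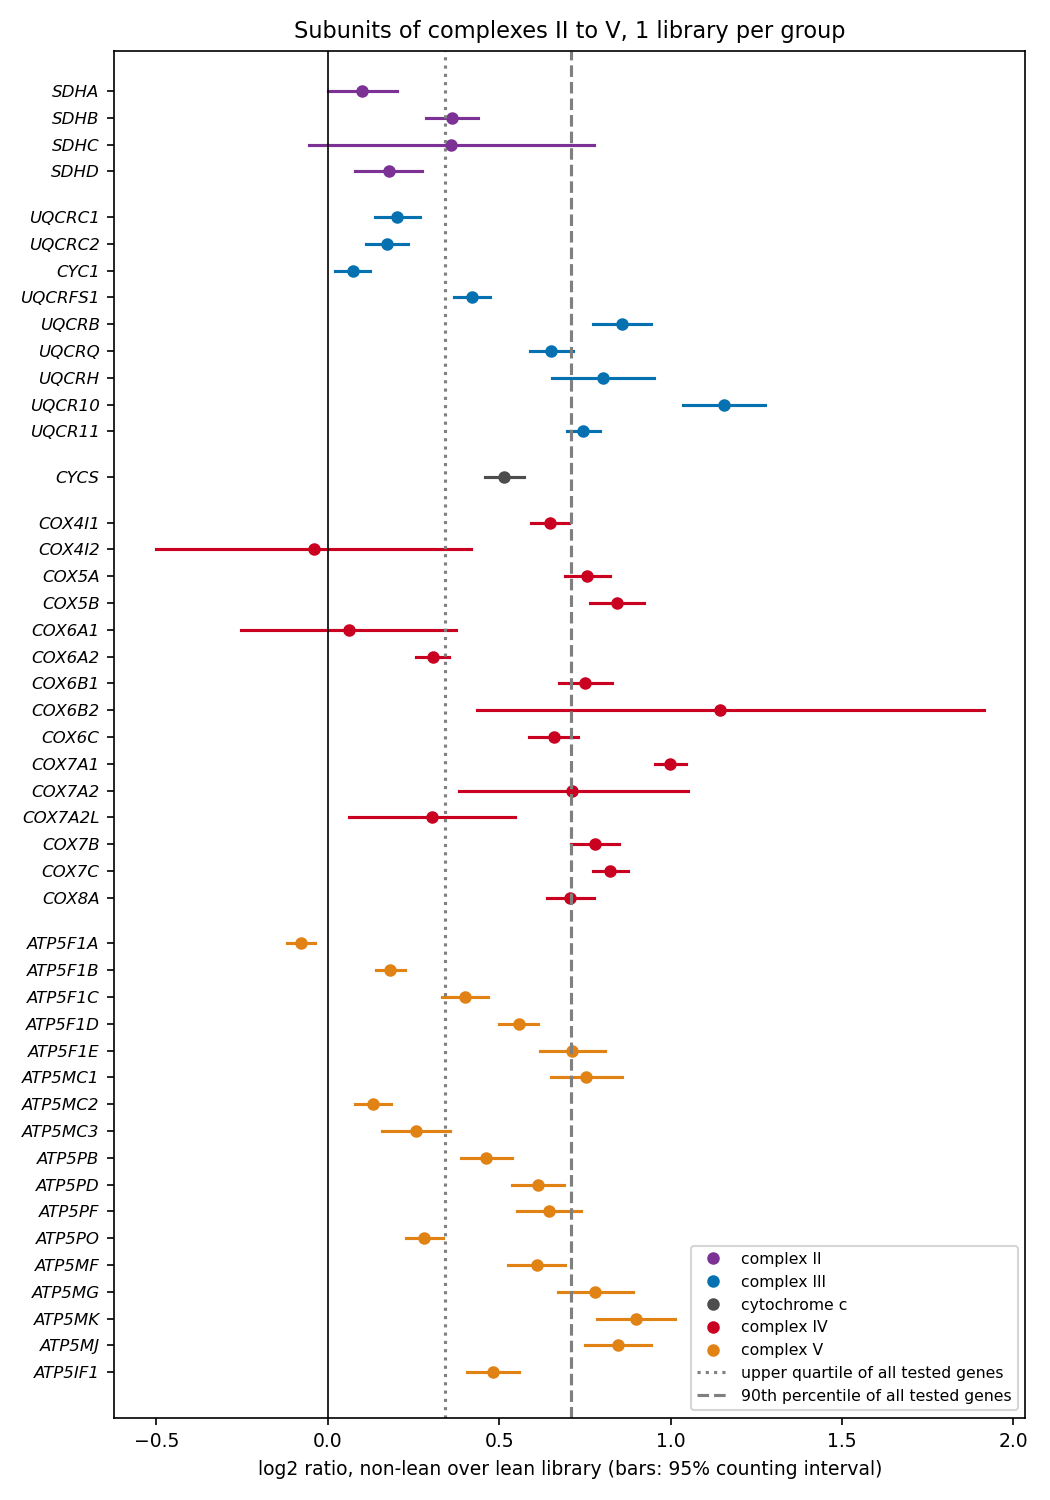
Log2 ratio, non-lean over lean (x axis), for the 46 tested subunit genes, by complex, with 95% counting intervals as bars. The dotted and dashed lines mark the upper quartile (0.34) and the 90th percentile (0.71) of all tested genes. Only ATP5F1A has an interval below 0 (0.063 with total counts as the scaling), and UQCR10 is the highest gene of complex III.

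Summed over genes, complex IV differed most between the libraries and complex II least. The sums differ in make-up, as those of complexes II, III and V hold catalytic, core or head genes and that of complex IV holds none. Among accessory subunits without tissue forms, the median log2 ratio was 0.80 for complex III and 0.77 for complex IV. Complex IV genes together stood at 4215 CPM in the non-lean and 2564 CPM in the lean library, a log2 ratio of 0.72 [0.70, 0.74]. Complex III genes summed to 2934 CPM in the non-lean and 2131 CPM in the lean library, 0.46 [0.44, 0.48]. For complex V the sums were 4844 CPM in the non-lean and 3810 CPM in the lean library, 0.35 [0.33, 0.36]. Complex II came to 475 CPM in the non-lean and 402 CPM in the lean library, 0.24 [0.19, 0.29]. These 4 counting intervals do not overlap. By the files' names alone, complex II stood at 0.29 [0.23, 0.35] and complex V at 0.31 [0.29, 0.33], and these intervals do overlap. All 48 genes held 1.35% of the non-lean library's counts [1.35, 1.36] and 0.875% of the lean library's [0.871, 0.880]. Within their summed counts, complex IV made up 32.7% in the non-lean library [32.5, 32.9] and 27.9% in the lean library [27.6, 28.1], a share that no scaling of the libraries alters. Complex V made up 37.6% in the non-lean [37.4, 37.8] and 41.4% in the lean library [41.2, 41.7].

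Complex II, succinate dehydrogenase, also belongs to the tricarboxylic acid cycle. Its flavoprotein SDHA, which holds the succinate site, had 1587 counts in the non-lean and 1684 in the lean library, 119 and 111 CPM. That is a log2 ratio of 0.10 [0.00, 0.20], whose interval held 0 with DESeq2 size factors and with its highest transcript model alone. The iron-sulfur subunit SDHB had 222 CPM in the non-lean and 173 CPM in the lean library, at 0.36 [0.29, 0.44]. Of the membrane anchors, SDHD had 127 CPM in the non-lean and 112 CPM in the lean library, at 0.18 [0.08, 0.28]. SDHC rested on few reads, 106 in the non-lean and 94 in the lean library, and its interval, 0.36 [-0.05, 0.78], held 0, though not with total counts or with its highest transcript model alone. None of the 4 was 1.5-fold apart. The 14 tricarboxylic acid cycle genes of a comparison list had a median of 0.10, from -0.20 for OGDH, a subunit of 2-oxoglutarate dehydrogenase, to 0.37 for SUCLG1, a subunit of succinyl-CoA ligase. None of those 14 was 1.5-fold apart either. OGDH and SUCLG1 are named after their values were seen.

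Complex III split by role. Cytochrome c1 and the core proteins lay below the upper quartile of all tested genes (0.34), the Rieske protein above it, and the small accessory subunits higher still. Cytochrome c1, CYC1, had 442 CPM in the non-lean and 420 CPM in the lean library, a log2 ratio of 0.07 [0.02, 0.12] whose interval also held 0 with DESeq2 size factors. The core proteins UQCRC1 and UQCRC2, which face the matrix, stood at 0.20 [0.14, 0.27] and 0.17 [0.11, 0.23]. UQCRC1 had 277 CPM in the non-lean and 241 CPM in the lean library, and UQCRC2 had 324 and 287. The Rieske iron-sulfur protein UQCRFS1, which carries electrons towards cytochrome c1, was the highest of these 4, with 467 CPM in the non-lean and 349 CPM in the lean library, at 0.42 [0.37, 0.47].

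The 5 small accessory subunits of complex III all stood at least 1.5-fold above the lean library. UQCR10 had 1666 counts in the non-lean and 851 in the lean library, 125 and 55.9 CPM, and stood at 1.16 [1.04, 1.28]. This was the highest ratio of the complex, and the gene encodes one of its smallest proteins. UQCRB, which touches the ubiquinone-binding region, had 226 CPM in the non-lean and 125 CPM in the lean library, at 0.86 [0.77, 0.94]. The hinge protein UQCRH, which lies beside cytochrome c1, had 70.4 CPM in the non-lean and 40.4 CPM in the lean library, at 0.80 [0.65, 0.95]. UQCR11 had 638 CPM in the non-lean and 381 CPM in the lean library, at 0.74 [0.70, 0.79]. None of these intervals reached those of the 4 genes above. UQCRQ had 365 CPM in the non-lean and 232 CPM in the lean library, at 0.65 [0.59, 0.71]. With the highest transcript model alone, UQCRQ stood at 0.32, which is under 1.5-fold and below UQCRFS1 in the same setting, at 0.40. Its other model held 44.1% of its counts in the non-lean and 30.5% in the lean library. As a measure free of scaling, the 4 core and catalytic genes took 51.5% of complex III counts in the non-lean library [51.0, 51.9] and 60.9% in the lean library [60.3, 61.4].

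Cytochrome c, CYCS, the mobile carrier between complexes III and IV, had 5497 counts in the non-lean and 4377 in the lean library. Its level was 411 CPM in the non-lean and 288 CPM in the lean library, a log2 ratio of 0.52 [0.46, 0.57]. This lies between the core and the accessory subunits of complex III.

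**Figure D2:**
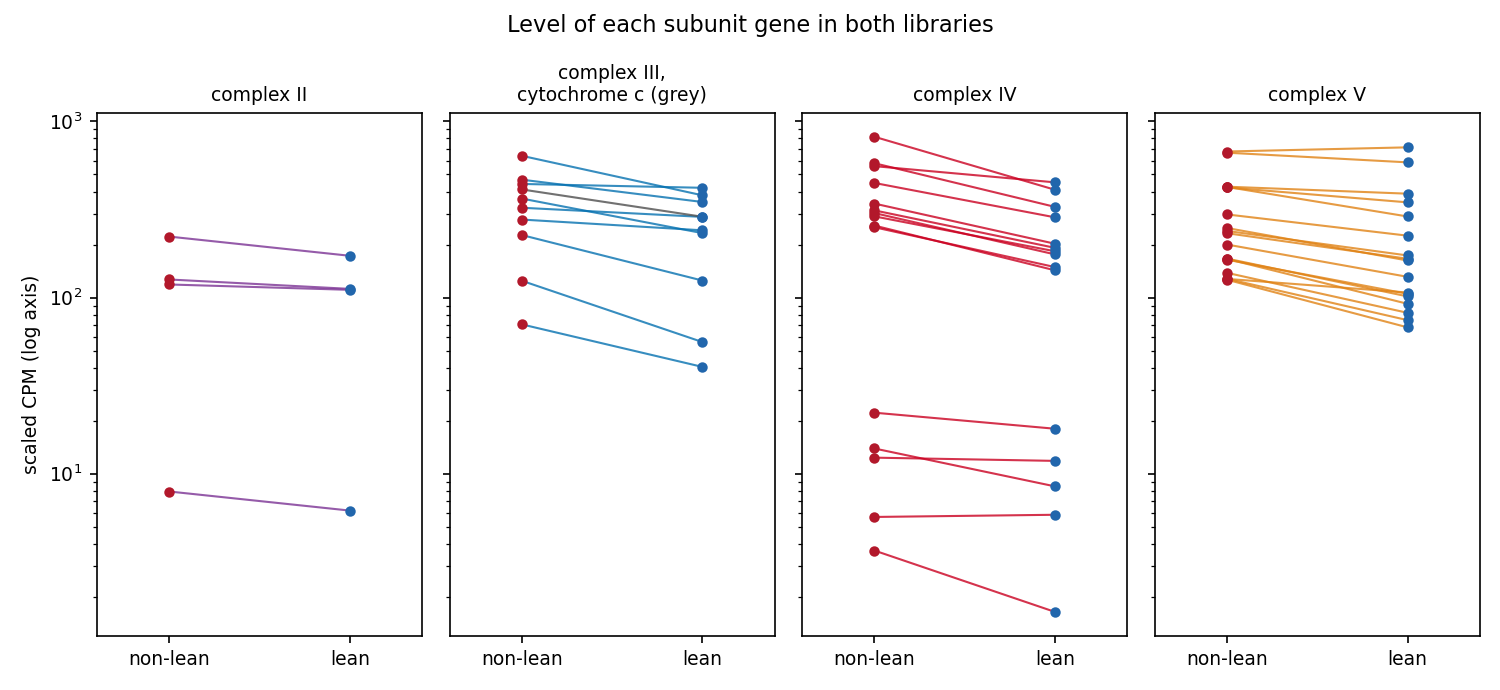
Scaled CPM (log axis) of each tested subunit gene in the non-lean library (left, red points) and the lean library (right, blue points), with a line per gene and a panel per complex. In complex IV the genes with the highest mean levels, COX7A1 and COX6A2, both stood higher in the non-lean library, at log2 ratios of 0.999 and 0.31, and the lowest gene, COX6B2, stood at 3.66 CPM in the non-lean and 1.64 CPM in the lean library.

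Complex IV had 11 of its 15 tested genes higher in the non-lean library by 1.5-fold or more. Its catalytic centre is encoded in mitochondrial DNA, so the genes here are for accessory subunits, some in tissue forms, apart from COX7A2L, described below. COX5A had 342 CPM in the non-lean and 202 CPM in the lean library, at 0.76 [0.69, 0.82]. COX5B, which binds zinc, had 256 CPM in the non-lean and 143 CPM in the lean library, at 0.84 [0.77, 0.92]. COX6B1, on the intermembrane side, had 251 CPM in the non-lean and 149 CPM in the lean library, at 0.75 [0.67, 0.83]. These 3 genes lay within a narrow band of ratios. COX6C had 289 CPM in the non-lean and 183 CPM in the lean library, at 0.66 [0.59, 0.73]. COX7B had 302 CPM in the non-lean and 176 CPM in the lean library, at 0.78 [0.71, 0.85], and COX7C had 579 and 327 CPM, at 0.82 [0.77, 0.88].

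Subunits with tissue forms behaved less alike. COX7A1, the heart and muscle form of subunit 7A, had 10943 counts in the non-lean and 6229 in the lean library, 818 and 409 CPM. Its log2 ratio of 0.999 [0.95, 1.04] fell just short of 2-fold. COX6A2, the heart and muscle form of subunit 6A, had 557 CPM in the non-lean and 451 CPM in the lean library, at 0.31 [0.26, 0.35]. The muscle forms of both subunits were thus higher, but by different amounts, and their intervals do not overlap. Of the complex IV counts COX7A1 took 19.4% in the non-lean [19.1, 19.7] and 16.0% in the lean library [15.6, 16.3], while COX6A2 took 13.2% in the non-lean [12.9, 13.5] and 17.6% in the lean library [17.2, 18.0]. COX4I1, the widespread form of subunit 4, had 447 CPM in the non-lean and 285 CPM in the lean library, at 0.65 [0.59, 0.70]. COX8A, the widespread form of subunit 8, had 313 CPM in the non-lean and 192 CPM in the lean library, at 0.71 [0.64, 0.78].

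The less used forms rested on far fewer reads. COX6A1, the widespread form of subunit 6A, had 165 counts in the non-lean and 180 in the lean library, with a ratio of 0.06 [-0.25, 0.37] that held 0. COX7A2, the widespread form of subunit 7A, had 186 counts in the non-lean and 129 in the lean library, at 0.71 [0.38, 1.05]. COX4I2, the lung form of subunit 4, had 76 counts in the non-lean and 89 in the lean library, at -0.04 [-0.50, 0.42], so that a difference was not detectable at this depth. The widespread form of subunit 7A was thus higher in the non-lean library, while the intervals of COX6A1 and COX4I2 held 0. COX6B2, a testis form in other mammals, had 49 counts in the non-lean and 25 in the lean library, at 1.14 [0.43, 1.91]. COX7B2 had 17 counts in the non-lean and 8 in the lean library. COX8C had 9 counts in the non-lean and 0 in the lean library, where a count of 0 allows up to 3, and the lower limit of its log2 ratio was 1.17. The testis forms together rest on too few reads to be followed further. COX7A2L, a subunit 7A relative that helps to join complexes III and IV into supercomplexes, had 297 counts in the non-lean and 274 in the lean library, at 0.30 [0.06, 0.55].

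The balance of muscle and widespread forms was nearly the same in both libraries. COX6A2 made up 97.8% of the counts of both 6A genes in the non-lean library [97.5, 98.1] and 97.4% in the lean library [97.0, 97.8]. COX7A1 made up 98.3% of the 7A counts in the non-lean library [98.1, 98.6] and 98.0% in the lean library [97.6, 98.3]. In both pairs the 2 intervals overlap. COX4I2 made up 1.25% of the subunit 4 counts in the non-lean library [0.99, 1.57] and 2.01% in the lean library [1.62, 2.46]. These intervals do not overlap, and the difference comes with a higher COX4I1 beside a COX4I2 whose own ratio held 0. The shares are of counts and not corrected for transcript length, so they compare libraries and not the amounts of the forms.

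In complex V, ATP synthase, the median log2 ratio was 0.05 for the head, 0.26 for the c-ring, 0.54 for the peripheral stalk, 0.56 for the central stalk and 0.81 for the membrane subunits outside the ring. Single genes crossed this order, as the c-ring gene ATP5MC2 lay below the head gene ATP5F1B. ATP5F1A, the alpha subunit of the head (ATP5A1 in the files), had 9024 counts in the non-lean and 10844 in the lean library, 675 and 713 CPM. It stood at -0.08 [-0.12, -0.04], and its sign turned with total counts as the scaling, which put it at 0.06. ATP5F1B, the catalytic beta subunit, had 665 CPM in the non-lean and 586 CPM in the lean library, at 0.18 [0.14, 0.22]. The central stalk that turns inside this head comprises ATP5F1C, ATP5F1D and ATP5F1E, which stood at 0.40, 0.56 and 0.71. ATP5F1C, the gamma subunit that forms the shaft, had 297 CPM in the non-lean and 225 CPM in the lean library. ATP5F1D, the delta subunit, had 425 CPM in the non-lean and 289 CPM in the lean library. ATP5F1E, the epsilon subunit, had 166 CPM in the non-lean and 102 CPM in the lean library. Of the complex V counts the alpha and beta genes took 27.6% in the non-lean library [27.3, 28.0] and 34.1% in the lean library [33.7, 34.5].

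The ring of c subunits, which turns as protons pass, is built from 3 genes that encode the same mature protein, and they differed from each other. ATP5MC1 (ATP5G1 in the files) had 1848 counts in the non-lean and 1247 in the lean library, 138 and 81.9 CPM, at 0.75 [0.65, 0.86]. ATP5MC2 had 426 CPM in the non-lean and 389 CPM in the lean library, at 0.13 [0.08, 0.18]. ATP5MC3 had 128 CPM in the non-lean and 107 CPM in the lean library, at 0.26 [0.16, 0.36]. ATP5MC1 was the only one of the 3 beyond 1.5-fold. The share of ATP5MC1 in the counts of the 3 genes was 20.0% in the non-lean library [19.2, 20.8] and 14.2% in the lean library [13.5, 14.9]. ATP5MC2 held 61.6% in the non-lean [60.6, 62.6] and 67.3% in the lean library [66.3, 68.3], and ATP5MC3 18.4% and 18.5%. With the highest transcript model alone the share of ATP5MC1 was 13.9% in the non-lean and 8.54% in the lean library, again higher in the non-lean library.

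**Figure D3:**
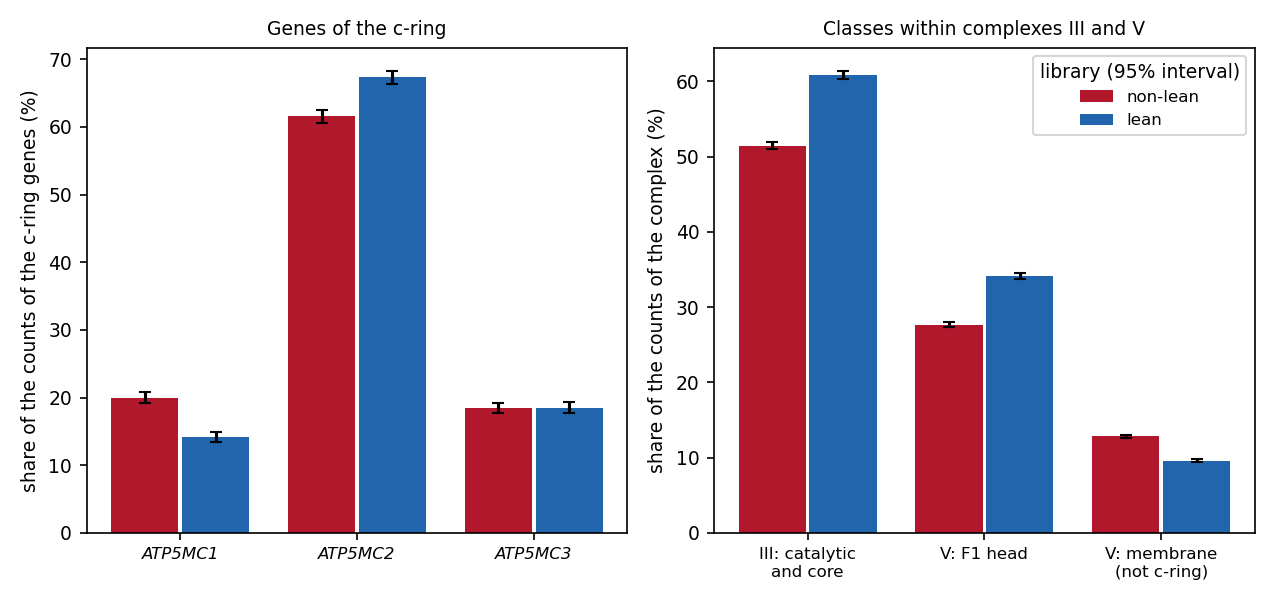
Left, share of the counts of the 3 c-ring genes held by each gene, and right, share of the counts of complex III or V held by subunit classes, in percent, with the non-lean library in red left of the lean library in blue and 95% Clopper-Pearson intervals as bars. ATP5MC1 and the small membrane subunits of complex V hold a larger share in the non-lean library, and the core of complex III and the head of complex V a smaller one.

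The peripheral stalk, which holds the head still, comprises ATP5PB, ATP5PD, ATP5PF and ATP5PO. Their ratios were 0.46, 0.61, 0.64 and 0.28, and all 4 intervals lay above 0. ATP5PO, which joins the stalk to the head, was the lowest, with 422 CPM in the non-lean and 347 CPM in the lean library. The 4 small membrane subunits outside the ring were all at least 1.5-fold higher. ATP5MK had 126 CPM in the non-lean and 67.7 CPM in the lean library and was the highest of complex V, at 0.90 [0.79, 1.01]. ATP5MJ, ATP5MG and ATP5MF stood at 0.85, 0.78 and 0.61, and ATP5MF was under 1.5-fold, at 0.41, with its highest transcript model alone. ATP5ME, another subunit of this group, was not matched by name and is not analysed here. The inhibitor ATP5IF1, which stops the enzyme from running backwards and splitting ATP, had 232 CPM in the non-lean and 166 CPM in the lean library, at 0.48 [0.41, 0.56]. Membrane subunits outside the ring took 12.8% of complex V counts in the non-lean library [12.5, 13.1] and 9.59% in the lean library [9.35, 9.84].

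Grouped by role across complexes, the subunits fell apart further. The 8 genes for catalytic, core and head proteins, from SDHA and SDHB through the complex III core to ATP5F1A and ATP5F1B, had a median of 0.18 and ran from -0.08 to 0.42. None of these 8 was 1.5-fold higher. All 38 other tested genes together had a median of 0.66 and ran from -0.04 to 1.16, which overlaps the range of the 8. Of these 38, 24 were at least 1.5-fold higher. The 11 accessory subunits of complexes III and IV without tissue forms, a part of the 38, had a median of 0.78. They ran from 0.65 to 1.16, with no overlap with the 8. All 11 were at least 1.5-fold higher, against 13.7% of all tested genes. UQCRQ was the exception to both under the highest transcript model. There it stood at 0.32, under 1.5-fold and below UQCRFS1 of the 8, at 0.40. With the tissue forms and COX7A2L added, 16 of 20 tested accessory genes of complexes III and IV were at least 1.5-fold higher. The other 4, COX6A2, COX6A1, COX4I2 and COX7A2L, lay within the range of the 8. COX6B1 and COX7B, whose other forms are testis forms, were counted among the 11. COX8A, whose other form here is the testis form COX8C, was instead counted with the tissue forms. The roles were written down with list medians of these data known, so the split is a description, and transcript lengths were not used here.

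**Figure D4:**
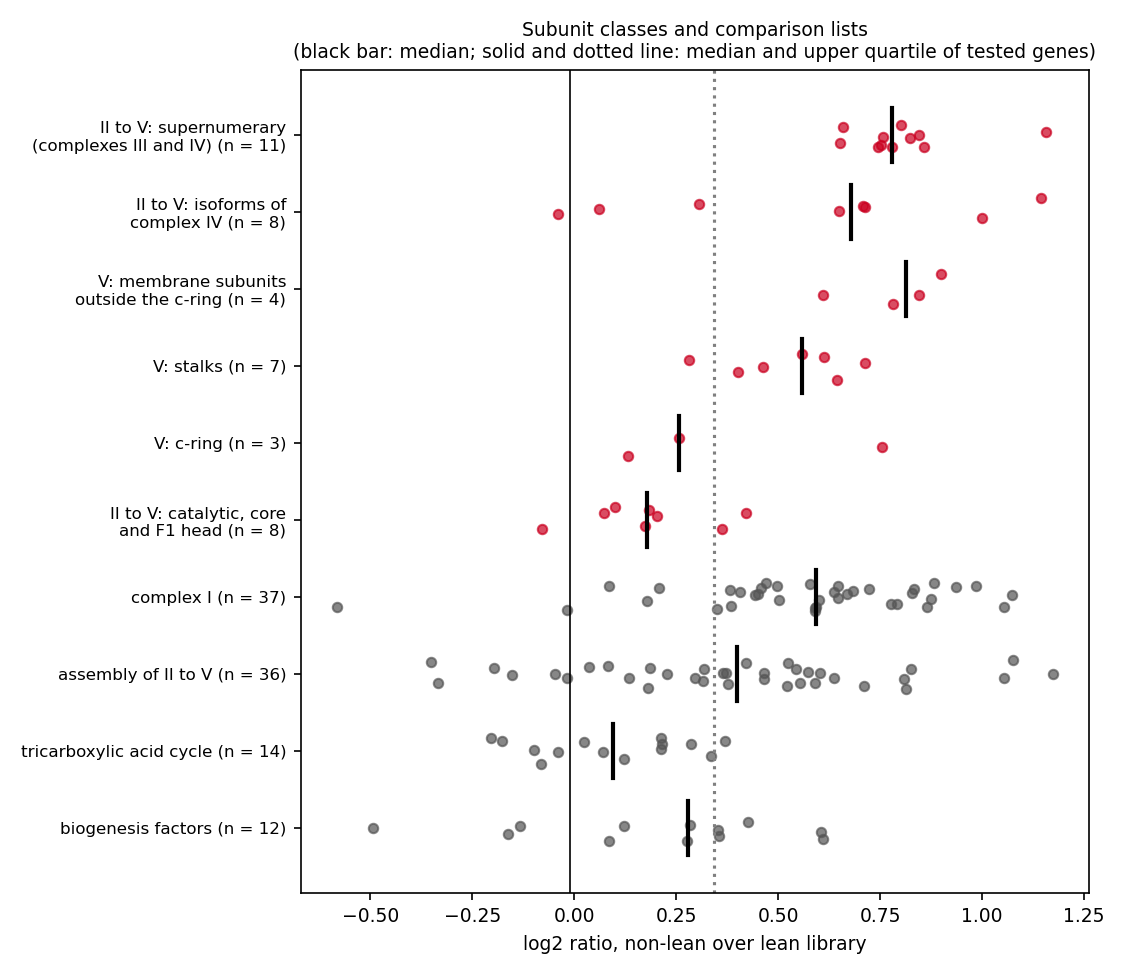
Log2 ratio, non-lean over lean (x axis), for tested genes of the subunit classes of complexes II to V with at least 3 genes and of the catalytic, core and head genes together (red) and of comparison lists (grey), 1 point per gene, with the median as a black bar. The 11 accessory (supernumerary) subunits of complexes III and IV without tissue forms lie between 0.65 and 1.16, the tissue forms (isoforms) of complex IV between -0.04 (above 0 with total counts as the scaling) and 1.14, and the catalytic, core and head genes between -0.08 and 0.42.

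Set beside related genes, the subunits of complexes II to V had a median close to that of complex I and above those of the assembly factors, the tricarboxylic acid cycle and the biogenesis factors. Complex I, which feeds electrons from NADH into the chain, had a median of 0.59 over 37 tested genes, and 21 of these were at least 1.5-fold higher. Its ends were the redox subunits NDUFS1, at -0.58, and NDUFV2, at -0.02 [-0.18, 0.15], and the small accessory subunits NDUFB7 and NDUFB3, at 1.05 and 1.07. The 36 tested assembly factors of complexes II to V, which build the complexes without staying in them, had a median of 0.40, with 23 intervals above 0 and 2 below. Of these 36, 10 were at least 1.5-fold higher, against 13.7% of all tested genes.

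Of 12 nuclear factors of mitochondrial biogenesis, 5 had intervals above 0 and 1 below, with a median of 0.28. With DESeq2 size factors, 4 had intervals above 0. Among all tested genes the interval lay above 0 for 25.8% and below 0 for 28.8%. PPARGC1A, a coactivator that drives respiratory genes, had 478 counts in the non-lean and 425 in the lean library, at 0.36 [0.16, 0.55]. Its partner ESRRA, a nuclear receptor that binds the promoters of such genes, had 1970 counts in the non-lean and 1755 in the lean library, at 0.35 [0.26, 0.45]. NRF1, a factor known for binding promoters of respiratory subunit genes, had 230 counts in the non-lean and 215 in the lean library. It stood at 0.28 [0.01, 0.56], an interval that held 0 with DESeq2 size factors. GABPA, which shares many of those targets, had 199 counts in the non-lean and 208 in the lean library, at 0.12 [-0.16, 0.41]. TFAM, which packs mitochondrial DNA and helps to start its transcription, had 91 counts in the non-lean and 77 in the lean library. Its ratio was 0.43 [-0.03, 0.88], an interval that held 0. YY1 was lower in the non-lean library, with 658 counts there and 1055 in the lean library, at -0.49 [-0.64, -0.35]. Among the other factors, TFB2M and ESRRG had intervals above 0, at 0.61 and 0.60. PPARGC1B and PPRC1, at -0.13 and -0.16, and TFB1M and GABPB1, at 0.08 and 0.28, had intervals that held 0.

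Levels of fibre type and cell type markers also differed between the libraries. Over all tested genes 25.8% of intervals lay above 0 and 28.8% below 0. At a mean of at least 50 CPM these shares were 39.5% and 41.9%. In bulk muscle fewer cells of a type and less RNA per cell cannot be told apart. All 7 skeletal muscle markers of the list were found, and their summed level, most of it from ACTA1 and MYH1, was 149597 CPM in the non-lean and 198565 CPM in the lean library. Of these 7, 6 had intervals below 0 (4 with total counts as the scaling), and the oxygen-binding myoglobin gene MB stood at 0.80. MYH1, MYH2 and TNNT3 are in the fast fibre list as well. Slow fibre genes summed to 17487 CPM in the non-lean and 10075 CPM in the lean library, with 8 of 10 intervals above 0. CASQ2, a calsequestrin of slow and cardiac muscle, ran against the list, with 61 counts in the non-lean and 697 in the lean library, at -3.32. Fast fibre genes summed to 117310 CPM in the non-lean and 156221 CPM in the lean library, with 11 of 13 intervals below 0 (8 with total counts). Of the fast fibre genes, the light chain gene MYL11 (MYLPF in the files) and the troponin gene TNNC2 had intervals above 0, at 0.13 and 0.12. Macrophage markers summed to 38.4 CPM in the non-lean and 132 CPM in the lean library, with 9 of 10 intervals below 0. Fibroblast markers summed to 490 CPM in the non-lean and 1089 CPM in the lean library, with 7 of 8 intervals below 0. Endothelial markers summed to 207 CPM in the non-lean and 266 CPM in the lean library, with 4 of 7 intervals below 0. Adipocyte markers summed to 141 CPM in the non-lean and 154 CPM in the lean library (a difference whose sign turned with total counts), of which CFD gave 109 CPM in the non-lean and 108 CPM in the lean library. The median over the 5 tested adipocyte genes was -2.64. ADIPOQ had 3 counts in the non-lean and 46 in the lean library, PLIN1 had 23 and 166, and CIDEC had 13 and 96, all with intervals below 0. FABP4, at 0.26, had an interval above 0. No marker of these lists was at 0 in either library, and the slow myosin gene MYH7 was not matched. Their part in the subunit ratios was not tested.

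Reads of many subunit genes were divided with other transcripts in the estimate. Of the 48 genes, 40 had a gene sum more than 0.02 counts from a whole number in at least 1 library. The share over all genes is not given here, so this cannot be called particular to the subunit genes. Among the 27 genes with a single transcript model this held for 23, so that reads were divided with transcripts of other genes. The 8 genes with whole sums in both libraries included 6 tested ones, SDHA, UQCRC1, COX4I2, COX6B2, COX7A2 and ATP5IF1, with a median of 0.34. The 40 genes without whole sums, all tested, had a median of 0.63. Of 21 genes with more than 1 model, 3 had a model whose share differed by at least 10 percentage points, and these were UQCRQ, SDHC and the sparse COX7B2.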

How the data were processed

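The files held expected counts, deposited by the authors as estimated counts per RefSeq transcript with a gene name, per the file headers, over 76183 transcripts. RSEM 1.3.3, STAR 2.7.8a and Trim Galore 0.6.6 are listed, without roles, per the submitters' processing notes. For the genome build and the annotation, the version is not given in the sources used here. Per the labels' protocols, RNA was taken on oligo(dT) beads, and no strand-marking step is named, so antisense reads cannot be told apart.

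Counts were summed per gene and rounded. Members and lists were chosen with earlier results of these data known. Of the 48 genes, 28 took their name by NCBI gene number, 16 by older symbol, 1 by transcript accession and 3 by symbol, with names from RefSeq (T2T-MFA8v1.1). Scaling used edgeR's trimmed mean of M-values (edgeR 4.0.16, R 4.3.3), with a prior count of 0.5. Intervals are exact 95% Clopper-Pearson intervals of the binomial split. They were run on simulated independent counts, which leave out reads divided between transcripts, so their coverage for these data was not tested. PCR reads are not independent molecules. Named genes are the members by role, ends of comparison lists and biogenesis factors. Alternatives were total counts, DESeq2 1.42.0 size factors, other filters, a prior of 5, the highest transcript model and naming. Python 3.11.15, numpy 2.4.6, pandas 2.3.3, scipy 1.17.1 and matplotlib 3.10.9 were used.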

Additional observations from a re-analysis of the deposited data

How the results depend on the processing

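With total counts the median of all tested genes moved up by 0.14 on the log2 scale, and the subunits moved with it. The median of the 17 genes named in the files became 0.54 and that of the 46 by current names 0.75. Complex sums became 0.385 for complex II, 0.60 for complex III, 0.66 for cytochrome c, 0.86 for complex IV and 0.49 for complex V, and ATP5F1A turned to 0.063. DESeq2 size factors gave 0.43 for complex III, 0.69 for complex IV and 0.32 for complex V. The highest transcript model alone gave 0.37 for complex III, 0.69 for complex IV and 0.32 for complex V. It put ATP5MC1 at 13.9% of the c-ring counts in the non-lean and 8.54% in the lean library, ATP5MC2 at 66.3% and 71.8%, and ATP5MC3 at 19.9% and 19.7%. Naming through the reference raised the median to 0.61, with 24 genes at least 1.5-fold higher and 42 intervals above 0. By the files' names alone complex II stood at 0.29 and complex V at 0.31. The 6 tested genes with whole sums, a setting chosen after seeing the data, had a median of 0.34. The causes of these shifts were not tested. Over the settings run, between 21 and 28 genes by current names were at least 1.5-fold higher, and among the 48 genes ATP5F1A with total counts was the only one with an interval off 0 that changed sign. Shares per kilobase of coding sequence were not run, as no lengths were used here. No paired analysis was possible because each group holds 1 library. Depth limits COX4I2, COX6A1, COX6B2, SDHC and the untested forms.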
